A study of Homo sapiens with 42 samples.

Results

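The alpha-globin locus at the tip of the short arm of chromosome 16 was examined through its chromatin loops, that is, through pairs of anchors of 10 kb whose contacts are counted together. The loops were chosen by position: on chromosome 16, with at least 1 anchor start between 0 and 600000 (GRCh38). This rule found 9 of the 33914 loops in the deposited table, and 5 of the 9 had both anchors inside the window. All 9 were among the 24132 loops tested; 8 reached the count filter in all 12 libraries, and loop28364 passed it through its 6 h libraries.

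The cells were K562, an established human leukemia line with erythroid and megakaryocytic features, carrying no engineered change per the labels. They were treated with 25 nM PMA, a phorbol ester that activates protein kinase C and drives K562 towards megakaryocytes, and were fixed at 0 h, 6 h and 72 h. In situ Hi-C joins DNA ends that lie close together in fixed nuclei, so each sequenced pair is a contact. Each time had 4 biological replicates (14 samples with their technical replicates and sequencing runs), all from this 1 line, and the untreated 0 h cells were the control for both later times.

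In erythroid cells the alpha-globin genes are switched on by enhancers that lie within introns of the neighbouring gene NPRL3, and the enhancers come into contact with the globin promoters. HBZ encodes the embryonic zeta chain of haemoglobin, HBA2 and HBA1 encode the same alpha chain in near-identical copies, and HBM and HBQ1 are the mu and theta members of the cluster. NPRL3 itself encodes a subunit of the GATOR1 complex, which restrains mTORC1 signalling. The cluster lies in a gene-dense stretch with many widely expressed genes, and sites of CTCF, the protein that holds many loop anchors, flank it.

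On GRCh38 the genes run from NPRL3 (chr16:85386-138673, minus strand) through HBZ (chr16:152644-154503), HBM (chr16:165978-166764), HBA2 (chr16:172876-173710) and HBA1 (chr16:176680-177522) to HBQ1 (chr16:180459-181179), as placed by RefSeq (GRCh38.p14). The gene bodies of HBA2 and HBA1 lay whole inside 1 anchor, and that of HBQ1 inside another. HBZ and HBM lay in no anchor: HBZ was 15498 bases from the nearest one and HBM 3237 bases. The NPRL3 anchor, at chr16:100001-110000, lay wholly inside that gene; which of its enhancers it holds was not tested. The start of NPRL3 lay in no anchor either.

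RefSeq's promoter table (GRCh38.p14, 250 bases before to 50 after each start) matched 2 of the 6 genes, HBM and NPRL3. They are shown because they contrast a globin promoter with that of the gene that carries the enhancers; both lie between the anchors of the loop that ends at HBQ1. Capitals mark matches to GATAA, the core bound by GATA factors, and CACCC, the element bound by KLF factors, on either strand; CCAAT and ATAAA were searched as well. The HBM window is chr16:165728-166027 on the plus strand and the NPRL3 window chr16:138624-138923 on the minus strand.
HBM: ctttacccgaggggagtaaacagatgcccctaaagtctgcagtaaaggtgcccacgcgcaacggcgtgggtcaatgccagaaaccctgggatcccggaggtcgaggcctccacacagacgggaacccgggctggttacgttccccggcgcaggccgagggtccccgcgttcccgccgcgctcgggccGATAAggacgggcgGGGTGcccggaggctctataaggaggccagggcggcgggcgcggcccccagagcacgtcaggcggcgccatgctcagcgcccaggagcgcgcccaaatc
NPRL3: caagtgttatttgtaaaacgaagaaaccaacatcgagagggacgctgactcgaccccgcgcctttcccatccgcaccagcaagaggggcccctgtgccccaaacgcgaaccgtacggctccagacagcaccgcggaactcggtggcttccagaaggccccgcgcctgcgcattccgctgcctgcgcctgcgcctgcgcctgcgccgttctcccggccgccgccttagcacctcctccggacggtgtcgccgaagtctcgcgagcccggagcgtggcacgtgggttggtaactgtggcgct

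The HBM window held GATAA at position -63 from the start, and CACCC on the opposite strand (printed as GGGTG) at position -49. The NPRL3 window held none of the 4 motifs. Of 35116 promoter windows of this length, 22.7% held GATAA on either strand, 59.9% CACCC, 34.6% CCAAT and 34.9% ATAAA. The motifs as spelled do not overlap one another in these windows.

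Values below are normalized counts: the contacts of a loop for every 1000000 that its library has in tested loops, with TMM factors applied. Libraries held between 736929 and 1472197 contacts over all loops. At 72 h, replicates 3 and 4 differed by less than counting noise allows to be seen (chi-square per degree of freedom 1.003 over 24132 loops, p = 0.367), unlike the other pairs at that time. This pair was also the closest at 0 h (1.018, p = 0.0253) and at 6 h (1.023, p = 0.00621), where it did differ. The labels give the 2 as separate biological replicates; the 72 h libraries were averaged and counted once, so that n = 3 at 72 h in each mean ± SD. The fits kept both, and every count of called loops in the window was the same with replicates 3 and 4 summed at 72 h or at every time. In the fit within replicates 3 and 4 alone, the 72 h side is 1 sample by this count. Its 72 h p-values thus rest on no replication at 72 h. Changes are log2 fold changes from edgeR's quasi-likelihood test, with Benjamini-Hochberg adjusted p-values over 24132 loops, and a loop is said to rise or fall where the adjusted p is under 0.05.

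The main pattern in the window was a fall at 72 h. Against 0 h, 5 of the 9 loops fell and 0 rose, while 16.9% of all tested loops fell and 16.7% rose. The 2 loops that end at alpha-globin genes were among those that fell, together with 3 loops further into the chromosome. The median log2 fold change of the 9 loops was -0.38, beside 0.01 over all tested loops. The count of 5 became 2 with DESeq2, and 3 without 0 h replicate 2 or 72 h replicate 1, 3 or 4; the 2 loops at alpha-globin genes were called in each of these fits. At 6 h, 1 loop rose and 0 fell, beside 2.34% and 4.07% of all tested loops. The loop that rose, loop28364, was tested only because it was high at 6 h, so its call is no independent support for a rise.

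**Figure D1:**
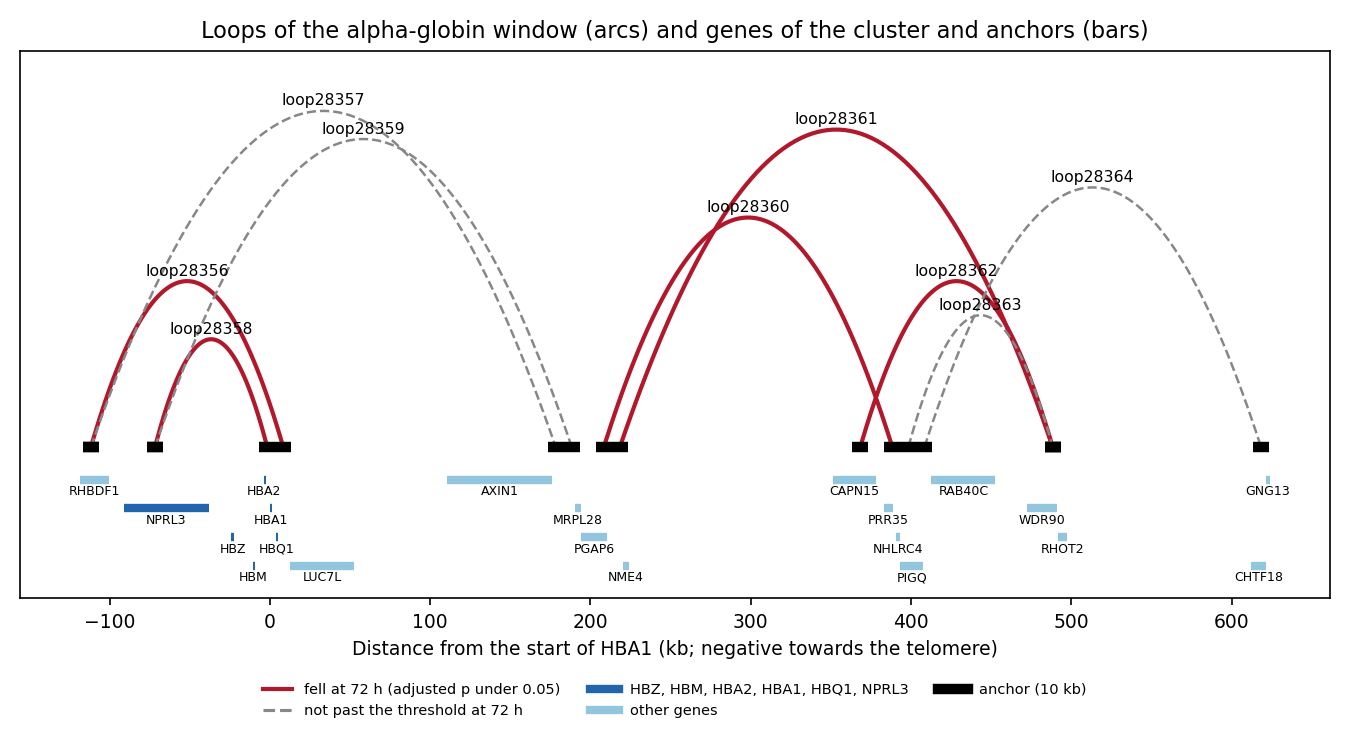
The map shows the 9 loops as arcs between their anchors (black, 10 kb) and the genes of the cluster and of the anchors as bars, against distance from the start of HBA1 in kb; arc height follows loop length. Solid red arcs are the 5 loops that fell at 72 h and dashed grey arcs the other 4, so that the loops ending at HBA2, HBA1 and HBQ1 are red and the longer loops from the same RHBDF1 and NPRL3 anchors are not.

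The loop from NPRL3 to the alpha genes (loop28358) joins chr16:100001-110000, inside NPRL3, with chr16:170001-180000, which holds HBA2 and HBA1, over 70 kb. It had the highest counts of the 9. Its normalized counts at 0 h were 150.6, 124.4, 133.0 and 142.1 in replicates 1 to 4. At 6 h they were 116.7, 93.45, 123.1 and 119.4, and at 72 h 106.2, 103.4, 106.1 and 103.5. Every 6 h and every 72 h library lay below every 0 h library, and the 72 h libraries were nearly level.

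Mean counts of loop28358 in time order were 138 ± 11, 113 ± 13 and 105 ± 1.4 (SD, n = 4, 4 and 3). At 72 h it fell by 0.39 on the log2 scale (SE 0.108, edgeR adjusted p = 0.00189), to a fold of 0.761. At 6 h the log2 fold change was -0.30 (SE 0.109, edgeR adjusted p = 0.0745), which did not pass the threshold. It passed in 2 of 23 other settings and samplings. One left out 0 h replicate 2, the lowest 0 h library (edgeR adjusted p = 0.0349), and the other added a replicate block (0.046). The 6 h value was -0.18 within replicates 3 and 4 (0.617) and -0.19 after a correction for loop length (0.302, edgeR adjusted p). Its libraries did not overlap at 6 h, as was so in that direction for 5.77% of tested loops.

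The 72 h fall of loop28358 was seen in replicates 1 and 2, which had 3 technical replicates each, and in replicates 3 and 4, which had 2. It was -0.41 within replicates 1 and 2 (edgeR adjusted p = 0.0381). Within replicates 3 and 4, whose 72 h libraries count as 1 sample, it was -0.39. Apart from that last fit, it passed the threshold in every other setting and sampling tried, with edgeR or DESeq2 adjusted p from 0.000419 to 0.0381. A correction for loop length left -0.28 (edgeR adjusted p = 0.0228). The raw contacts were 208, 131, 106 and 125 at 0 h and 120, 103, 102 and 116 at 72 h. HBA2 and HBA1 share nearly all of their sequence and lie in 1 anchor, so these counts say nothing of either gene alone, and reads that could not be placed between the copies may be missing.

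At 0 h this loop was strong for its length. Loops near it in length (within 10 kb, 1528 tested loops) had a median normalized count of 85.0 at 0 h, and 83.8% of them lay below it. These loops also tended downward at 72 h: their median log2 fold change was -0.17 and 35.6% fell. A lower value than that of loop28358 was found in 23.0% of them. Its fall was thus larger than the median for its length without being extreme.

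The loop from RHBDF1 to HBQ1 (loop28356) spans the whole cluster, and the NPRL3 loop lies nested within it. It joins chr16:60001-70000, inside RHBDF1, which encodes an inactive rhomboid protein that controls the maturation of the protease ADAM17, with chr16:180001-190000, which holds HBQ1 and the end of LUC7L, a splicing factor gene. The length is 120 kb. Its normalized counts were 76.05, 72.15, 55.2 and 73.91 at 0 h in replicates 1 to 4. They were 53.93, 65.42, 45.28 and 48.26 at 6 h, and 45.12, 50.2, 40.56 and 47.31 at 72 h. All 72 h libraries lay below all 0 h libraries, and the 6 h libraries overlapped both.

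Mean counts of loop28356 in time order were 69.3 ± 9.6, 53.2 ± 8.9 and 46.4 ± 3.3 (SD, n = 4, 4 and 3). At 72 h it fell by 0.60 on the log2 scale (SE 0.142, edgeR adjusted p = 0.000261), to a fold of 0.661. This was the largest fall among the 9 loops. The fall was -0.64 within replicates 1 and 2 (edgeR adjusted p = 0.00656). Within replicates 3 and 4, whose 72 h libraries count as 1 sample, it was -0.54. Apart from that last fit, the edgeR or DESeq2 adjusted p ranged from 6.57e-05 to 0.00656 in the other settings and samplings. At 6 h the log2 fold change was -0.36 (edgeR adjusted p = 0.0908), and it passed only without 6 h replicate 2, the highest 6 h library (edgeR adjusted p = 0.047).

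Against loops of its length, loop28356 was ordinary in level and low in change. Among 1481 tested loops within 10 kb of its length, 60.8% lay below it at 0 h. Their median log2 fold change at 72 h was -0.09, 27.3% of them fell, and 7.2% had a lower value than loop28356.

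The same RHBDF1 and NPRL3 anchors also reach past the cluster, and these longer loops did not pass the test. Loop28357 joins the RHBDF1 anchor with chr16:350001-360000, which holds the start of AXIN1, a scaffold of the complex that degrades beta-catenin, 290 kb away. Replicates 1 to 4 had normalized counts of 39.11, 37.97, 33.87 and 37.52 at 0 h, 36.28, 28.97, 24.06 and 34.99 at 6 h, and 26.54, 31.12, 34.32 and 22.32 at 72 h. The 72 h libraries lay below those of 0 h except for replicate 3, which overlapped. The log2 fold change at 72 h was -0.38 (SE 0.181, edgeR adjusted p = 0.0726). It passed without 72 h replicate 3 (0.0388) and without the filter on low counts (0.0408).

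Loop28359 joins the NPRL3 anchor with chr16:360001-370000, at MRPL28, a gene of the mitochondrial ribosome, 260 kb away. In normalized counts it had 38.38, 37.97, 50.18 and 45.48 at 0 h, 43.14, 53.27, 42.45 and 45.84 at 6 h, and 49.54, 43.17, 33.28 and 34.81 at 72 h. The 3 times overlapped throughout, with means of 43.0 ± 5.9, 46.2 ± 4.9 and 42.3 ± 7.8 (SD, n = 4, 4 and 3). At 72 h its log2 fold change was -0.06 (SE 0.163, edgeR adjusted p = 0.799). The direction differed between the pairs of replicates, at 0.26 within replicates 1 and 2 and -0.46 within replicates 3 and 4, neither of which passed (edgeR adjusted p = 0.396 and 0.137).

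**Figure D2:**
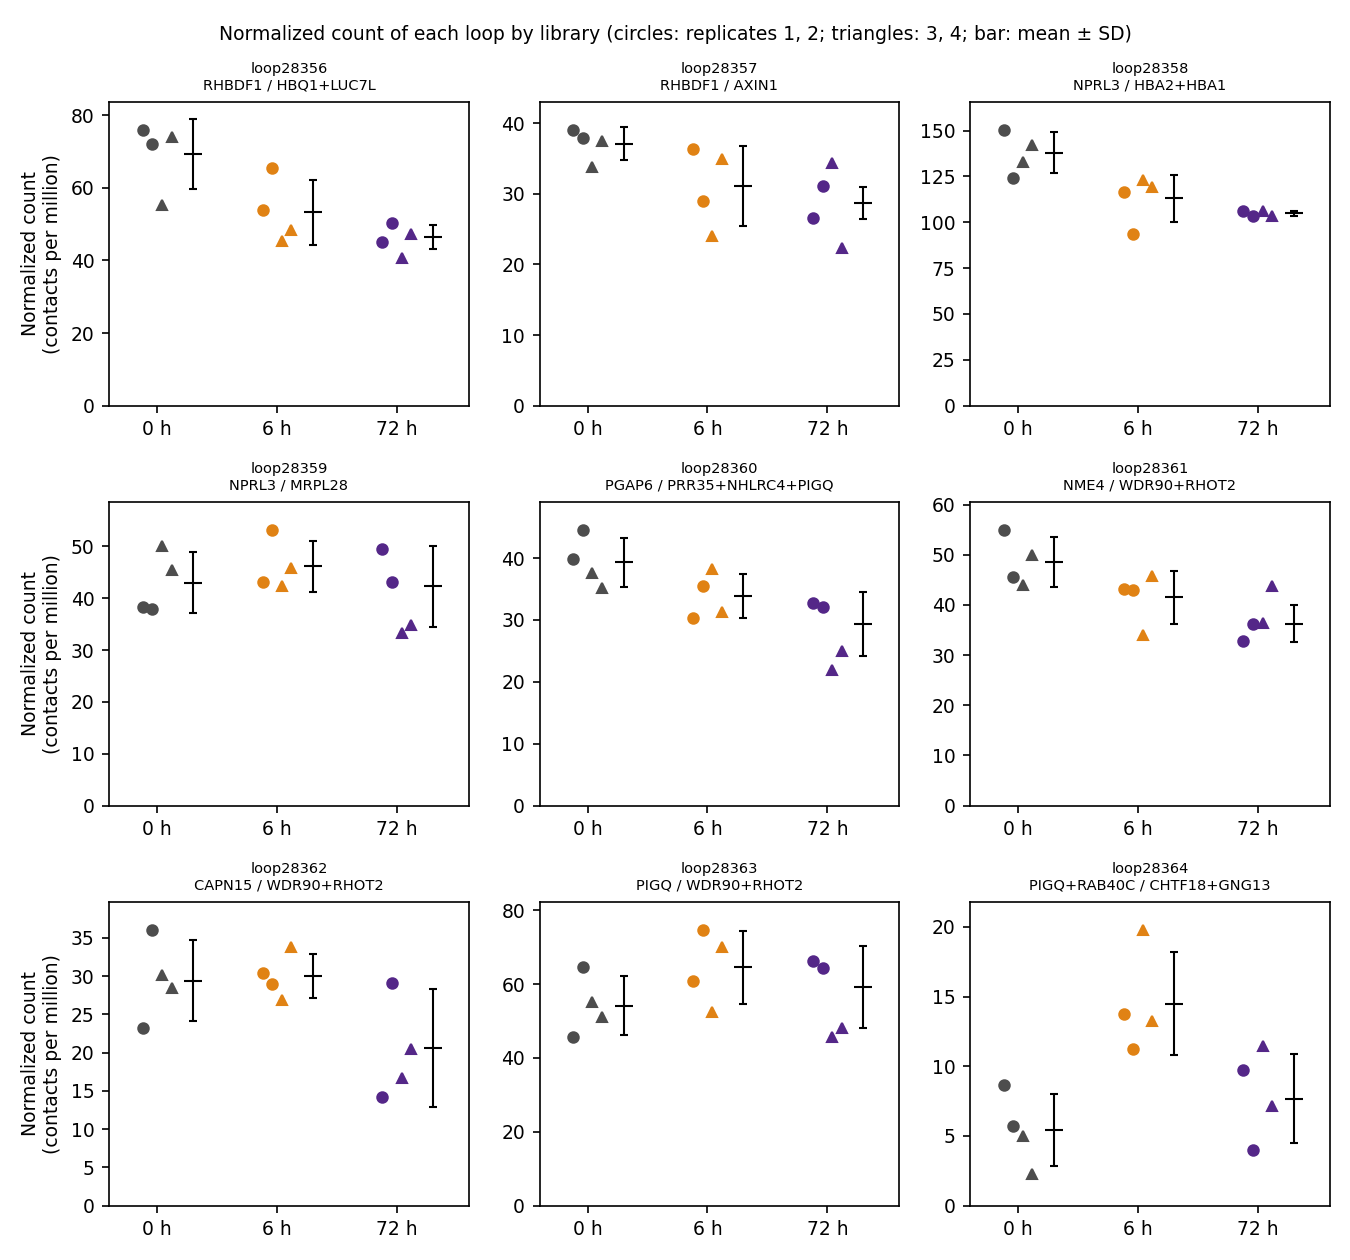
Each panel plots 1 loop: normalized count (contacts per 1000000 in tested loops) by time of PMA, with circles for replicates 1 and 2, triangles for replicates 3 and 4, and the mean ± SD (n = 4, 4 and 3) at the right of each group. The axes start at 0. The loops ending at HBA2 and HBA1 and at HBQ1 step down without overlap between 0 h and 72 h, loop28359 is level, and loop28364 peaks at 6 h from a low start.

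Ratios of 2 loops within a library do not depend on library scaling; they were taken for 5 pairs that share an anchor and for the nested pair, which does not. The ratio of the NPRL3 loop to the alpha genes over the NPRL3 loop to MRPL28 had geometric means of 3.21, 2.45 and 2.51 in time order. The difference on the log2 scale was -0.39 at 6 h (two-sided exact permutation p = 0.0857, 4 against 4 samples) and -0.36 at 72 h (two-sided exact permutation p = 0.114, 4 against 3). From the RHBDF1 anchor, the ratio of the HBQ1 loop over the AXIN1 loop was 1.86 at 0 h and 1.63 at 72 h (two-sided exact permutation p = 0.114). The HBQ1 loop over the nested NPRL3 loop stood at 0.501 and 0.442 (two-sided exact permutation p = 0.229). None of 12 such tests over 6 pairs passed after Benjamini-Hochberg adjustment, where the lowest value was 0.229. The smallest p these designs allow is 0.0286 for 4 against 4 samples and 0.0571 for 4 against 3. With these limits, no set of ratios could have brought any of the 12 tests under the threshold after adjustment. The adjusted tests therefore cannot decide whether the globin loops and the longer loops from the same anchors changed unequally. The pairs were chosen after the values were seen.

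Further into the chromosome, 5 loops have no globin gene and no part of NPRL3 in an anchor. Loop28360 links the anchor at PGAP6, a phospholipase gene acting on GPI anchors, with the one at PRR35, NHLRC4 and the first bases of PIGQ (chr16:380001-390000 and chr16:560001-570000, 180 kb). Its normalized counts were 39.83, 44.62, 37.63 and 35.25 at 0 h, 30.39, 35.51, 38.21 and 31.37 at 6 h, and 32.73, 32.13, 21.84 and 24.99 at 72 h. All 72 h libraries lay below all 0 h libraries. At 72 h it fell by 0.47 on the log2 scale (SE 0.178, edgeR adjusted p = 0.0216). The call was lost without 0 h replicate 2 (0.0639), 72 h replicate 3 (0.0808) or 72 h replicate 4 (0.0651), with DESeq2 (0.0882), and within replicates 1 and 2 (0.232) or 3 and 4 (0.0957).

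The anchor at chr16:660001-670000, which holds the end of WDR90 and the start of RHOT2, a gene of mitochondrial movement, is shared by 3 loops, of which 2 fell at 72 h. Loop28361 reaches from it to NME4, a mitochondrial nucleoside diphosphate kinase gene (chr16:390001-400000, 270 kb). Its normalized counts were 55.04, 45.57, 43.91 and 50.03 at 0 h, 43.14, 42.99, 33.96 and 45.84 at 6 h, and 32.73, 36.14, 36.4 and 43.74 at 72 h. The 72 h libraries lay below those of 0 h, by a narrow margin for replicate 4 against 0 h replicate 3. At 72 h it fell by 0.38 on the log2 scale (SE 0.159, edgeR adjusted p = 0.0391).

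That call was one of the less stable ones. It was lost without 0 h replicate 1 (0.161) or 4 (0.0556), without 72 h replicate 1 (0.119), 2 (0.0658) or 3 (0.0622), with DESeq2 (0.132), with scaling by library totals (0.0793) and within replicates 3 and 4 (0.528, edgeR adjusted p).

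Loop28362 reaches from the same anchor to CAPN15, a calpain gene (chr16:540001-550000, 120 kb). It had few contacts for its length. Its normalized counts were 23.18, 36.08, 30.11 and 28.43 at 0 h, 30.39, 28.97, 26.89 and 33.78 at 6 h, and 14.15, 29.11, 16.64 and 20.53 at 72 h. Replicate 2 of 72 h overlapped the earlier times and the other 3 lay below them. At 72 h it fell by 0.50 on the log2 scale against 0 h (SE 0.21, edgeR adjusted p = 0.0373). Against 6 h it fell by 0.55 (SE 0.215, edgeR adjusted p = 0.0375), while at 6 h against 0 h it stood at 0.05 (0.922).

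The 72 h call of loop28362 was lost in 10 of 23 other settings and samplings. Among these were leaving out 0 h replicate 2 (0.15) or 3 (0.0567) or 72 h replicate 1 (0.172), 3 (0.0929) or 4 (0.0539), DESeq2 (0.118), library totals (0.066), the length correction (0.0679) and each pair of replicates alone (0.246 and 0.133, edgeR adjusted p). Its call against 6 h was lost without 6 h replicate 1 (0.0724) or 4 (0.0966) or 72 h replicate 1 (0.17), 3 (0.0926) or 4 (0.0554), with DESeq2 (0.146) and within each pair of replicates (0.278 and 0.141).

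Loop28363, the third at the RHOT2 anchor, reaches into PIGQ, a gene of GPI anchor synthesis (chr16:570001-580000, 90 kb). Normalized counts were 45.63, 64.56, 55.2 and 51.17 at 0 h, 60.79, 74.76, 52.36 and 69.97 at 6 h, and 66.35, 64.25, 45.76 and 48.2 at 72 h, so that all times overlapped. Its log2 fold change was 0.27 at 6 h (SE 0.146, edgeR adjusted p = 0.255) and 0.07 at 72 h (SE 0.146, edgeR adjusted p = 0.745). At 72 h the direction differed between the pairs of replicates, at 0.25 within replicates 1 and 2 and -0.17 within replicates 3 and 4. The ratio of the CAPN15 loop over this loop was 0.542 at 0 h and 0.336 at 72 h (two-sided exact permutation p = 0.0571, adjusted p = 0.229).

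Loop28364 was the 1 loop that rose. It joins the end of PIGQ and the start of RAB40C, a Rab-family gene that acts in ubiquitin ligation (chr16:580001-590000), with CHTF18, a clamp loader gene of sister chromatid cohesion, and GNG13, a G protein gamma subunit gene (chr16:790001-800000), over 210 kb. It was very weak before treatment, with 12, 6, 4 and 2 raw contacts at 0 h. At 6 h it had 14, 12, 14 and 11 raw contacts, and at 72 h 11, 4, 11 and 8. The normalized counts were 8.691, 5.696, 5.018 and 2.274 at 0 h, 13.73, 11.21, 19.81 and 13.27 at 6 h, and 9.731, 4.016, 11.44 and 7.141 at 72 h.

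All 6 h libraries of loop28364 lay above all 0 h libraries, as was so in that direction for 4.97% of tested loops, and the 72 h libraries overlapped both. At 6 h it rose by 1.04 on the log2 scale (edgeR adjusted p = 0.0183), from 5.42 ± 2.6 to 14.5 ± 3.7 (SD, n = 4 each). It reached the filter's cutoff of 9.58 contacts per 1000000 in 0 of 4 libraries at 0 h, 4 of 4 at 6 h and 1 of 4 at 72 h, where 4 libraries are needed. It was thus tested only because it was high at 6 h. Neither the call nor the lack of overlap between 0 h and 6 h is independent support for a rise. With no filter the edgeR adjusted p was 0.0218. At so few contacts the prior count shrinks the change, which was 1.26 with edgeR's default prior (SE 0.361). At 72 h the log2 fold change against 0 h was 0.37 (edgeR adjusted p = 0.377). The 6 h call was lost without 0 h replicate 4, the lowest library (0.0838), without 6 h replicate 3, the highest (0.0779), with DESeq2 (0.113), and within replicates 1 and 2 (0.445) or 3 and 4 (0.0511). The exact 95% Poisson interval of its lowest count, 2, runs from 0.2 to 7.2 contacts, which covers counting error only.

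**Figure D3:**
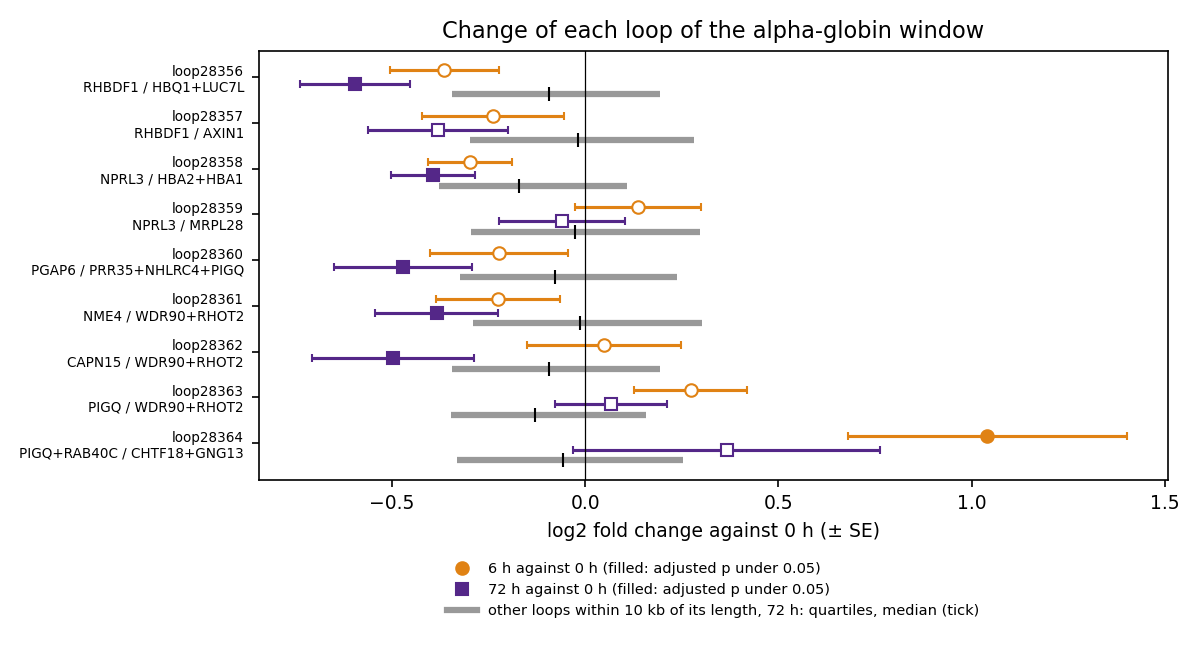
The plot gives the log2 fold change against 0 h (± SE, taken before the shrinkage by the prior count) of each loop at 6 h (circles) and 72 h (squares), filled where the adjusted p is under 0.05, with the quartiles and median at 72 h of other loops within 10 kb of its length below it (grey bar and tick). Only the loop ending at CHTF18 and GNG13 is filled at 6 h, at 1.04, and the 5 filled squares lie between -0.60 and -0.38. All lie left of their grey medians, a position that follows largely from their being called as falling.

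Between 6 h and 72 h all 9 loops had log2 fold changes below 0 and 1 of them, the CAPN15 loop, passed, beside 9.81% of tested loops that fell and 10.7% that rose. For the other 8 loops of the window the edgeR adjusted p lay between 0.0748 and 0.618. Values below 0 were also found for 12061 of all 24132 tested loops and for 480 of 749 on chromosome 16. In the adjoining stretch of chromosome 16, of the same width as the window, 9 of 10 were below 0. There 3 of 10 fell between 6 h and 72 h, with a median of -0.28, beside -0.21 in the window. The comparisons with 0 h share the 0 h libraries, and their values for each loop are given side by side above. At 72 h, 4 of the 9 loops had every library below every 0 h library, beside 14.1% of all tested loops.

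The share of all loop contacts that fell in the window summarises these changes by library. It was 0.0447%, 0.0448%, 0.0417% and 0.0441% at 0 h in replicates 1 to 4. It was 0.0413%, 0.0427%, 0.0389% and 0.0422% at 6 h, and 0.0367%, 0.0381%, 0.0337% and 0.0343% at 72 h. The means were 0.0438 ± 0.0015% (SD, n = 4), 0.0413 ± 0.0017% (SD, n = 4) and 0.0362 ± 0.0021% (SD, n = 3). The 72 h libraries were the lowest and overlapped neither 0 h nor 6 h. It follows from this that the 72 h shares lay below both earlier times within replicates 1 and 2 and within replicates 3 and 4.

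**Figure D4:**
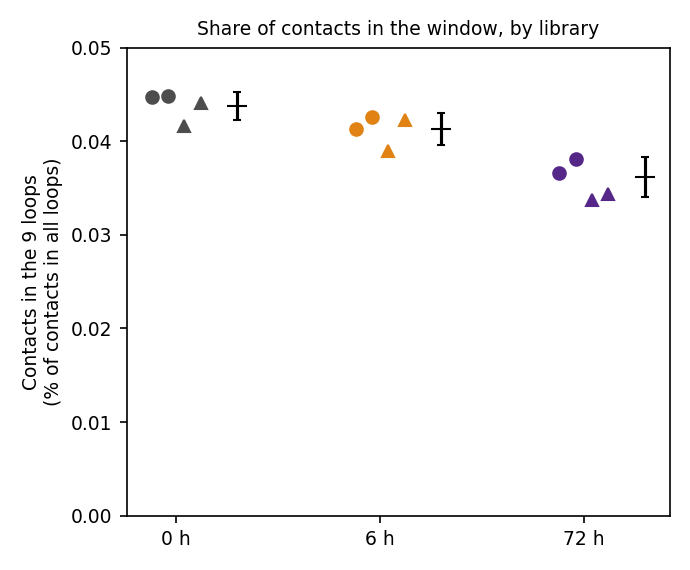
The plot shows the contacts in the 9 loops as a percentage of contacts in all 33914 loops, by time, with circles for replicates 1 and 2, triangles for replicates 3 and 4, and the mean ± SD. The axis starts at 0; the 4 libraries of 72 h sit between 0.0337% and 0.0381%, below every earlier library.

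The 4 loops with an anchor at RHBDF1 or NPRL3 and the other 5 had nearly the same median at 72 h, -0.39 and -0.38, with 2 of 4 and 3 of 5 that fell. Both loops that end at alpha-globin genes fell, as did 3 of the other 7; the difference between these groups was not tested. The next loop beyond the window (loop28365, from 700001 to 1050001 on chromosome 16) stood at 0.41 (log2 fold change at 72 h, edgeR adjusted p = 0.138), beside 0.37 for loop28364, the last inside. In the adjoining stretch of chromosome 16, of the same width as the window, 1 of 10 loops fell and 0 rose at 72 h, with a median of -0.08. Over chromosome 16 the median was -0.10, and 23.0% of 749 tested loops fell and 13.2% rose. Among the 10748 tested loops between 70 and 290 kb, the range of the 9, the median was -0.08 and 23.8% fell.

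The beta-globin locus on chromosome 11 offers the other globin cluster, which encodes the partner chains of haemoglobin. Its loops were chosen by position, as those with an anchor start in a window around the cluster. Most of them do not end at a beta-globin gene: HBG2 had 1 loop, and HBB, HBD, HBG1 and HBE1 had none. Of the 17 loops, all tested, 5 fell and 1 rose at 72 h (29.4% and 5.88%, beside 16.9% and 16.7% of all tested loops). The median log2 fold change was -0.24. At 6 h 2 of the 17 fell (11.8%, beside 4.07%), with a median of -0.14, beside -0.22 in the alpha-globin window. No test of the difference between the loci was made.

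Loops at other genes of the erythroid programme were followed through a list of 22 genes, of which 8 had a tested loop with the gene in an anchor. Of their 12 tested loops, 8 fell and 0 rose at 72 h, beside 16.9% and 16.7% of all tested loops, with a median log2 fold change of -0.36. Several of these loops are short, and among loops near 70 kb 35.6% fell. The loop at HBG2, a fetal beta-like globin gene, fell by 0.44 on the log2 scale, and that at KLF1, the erythroid factor that binds CACCC elements, fell by 0.41 (edgeR adjusted p = 0.000627 and 0.00155). For ZFPM1, which encodes the GATA partner FOG1, the loop fell by 0.28 (edgeR adjusted p = 0.0223). For LMO2, which encodes a bridging protein, the loop fell by 0.23 (edgeR adjusted p = 0.0494). At NFE2, a factor of late erythroid and megakaryocytic genes, the value of -0.20 did not pass (0.0923).

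At MYB, a factor of immature blood cells, 2 of 3 loops fell at 72 h, by 0.83 and 0.70 on the log2 scale (edgeR adjusted p = 4.24e-06 and 9.4e-06). These were also the 2 loops of the list that passed at 6 h, where both fell. The globin loops of chromosome 16, at -0.39 and -0.60, lay within the range of the loops of this list that fell. Loops were named by the genes in their anchors, and whether the genes' expression moved with them was not analysed here.

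The loops most like the average of the NPRL3 to alpha gene loop and the RHBDF1 to HBQ1 loop across the 12 libraries were found by Pearson's correlation of log2 normalized counts. Among the closest 3 were loop21874 on chromosome 11, between P2RX3 and SLC43A3 (r = 0.964), and loop29564 on chromosome 17, with RHBDL3 at 1 anchor (r = 0.959). The libraries share the time course, so that any loop that falls in steps from 0 h to 72 h scores high, and the values are a description over 12 libraries. These 2 loops had log2 fold changes at 72 h of -0.55 and -0.50.

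In the authors' deposited table all 9 loops carry the class static. Its log2 fold changes at 72 h are -0.46 for loop28356 and -0.31 for loop28358, in the authors' deposited table. The authors' deposited table gives each loop 1 adjusted p, the same beside its 6 h and 72 h values (0.0678 and 0.0913 for these loops), so it is not that of the 72 h change alone. For loop28364 the authors' deposited table has empty cells. The direction at 72 h was the same as in the edgeR fit for the other 8 loops, with smaller changes in size in the authors' deposited table.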

How the data were processed

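The authors deposited raw contact counts per loop in 30 columns, and per the file headers a column is 1 technical replicate. Deposited beside them are log2 fold changes, p-values (adjusted) and a class. The build hg38, Juicer 1.5.6 and DESeq2 are named in the submitters' processing notes; loop calling is not given in the sources used here. Sequencing runs of replicates 3 and 4 share 1 column. No background is subtracted from a pixel's contacts, so a count holds local background as well as the loop.

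Technical replicates were summed into 12 libraries. Loops were kept with edgeR's filterByExpr (minimum count 10, minimum total 15). The fit used edgeR 4.0.16 under R 4.3.3 (quasi-likelihood test, TMM, prior count 2, no covariate, all 3 times in 1 model). Standard errors are the change at edgeR's default prior over the square root of F; the printed changes carry the prior count of 2, which shrinks them a little (most for loop28364). P-values measure the spread between these replicates of 1 line. Single ratios were tested with exact permutation tests (SciPy 1.17.1).

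Alternatives were DESeq2 1.42.0, RLE scaling and library totals, no filter and a loess correction for length. Further ones were a term for the pair of replicates (1 and 2, or 3 and 4), which the labels do not name as batches, either pair alone and a replicate block. The rest were summed replicates, other windows, a threshold of 0.01 and leaving out each library. On counts simulated for 72 h against 0 h over 24132 loops, 200 were changed. The test found 74% of changes of 2-fold, 27% of changes of 1.5-fold and 5 loops that had not been changed. In the data 8105 loops were called at 72 h, many more than were changed in the simulation. The rates hold for the simulated setting only.

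All loops of the window are named, with the protein-coding genes (no LOC symbols) that have any part in an anchor; the 3 most alike loops are the highest by Pearson's r. Some loops of the erythroid list and 1 of these 3 are not reported here. The members and lists were chosen with earlier results of these data known. Anchors are counted from 1. Promoters come from RefSeq, GRCh38.p14.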

Additional observations from a re-analysis of the deposited data

Results flagged for a closer look

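Loop28362, between CAPN15 and the anchor at WDR90 and RHOT2, was marked because its change differed between the times: its log2 fold change against 0 h was lower at 72 h than at 6 h by a difference of -0.55 (edgeR quasi-likelihood test of 72 h against 6 h, adjusted p = 0.0375). Of the 4 libraries at 72 h, 3 lay below all earlier libraries. Groups of 4 libraries were also examined for a library far from the others; of 20 groups none was marked, and 1 would be by chance.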

How the results depend on the processing

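The falls of loop28356 and loop28358 at 72 h kept their direction and their side of the threshold under all 23 alternatives to the fit. The other calls did not. At 72 h against 0 h the 5 calls became 2 with DESeq2, 3 with library totals only, 3 within replicates 1 and 2, 2 within replicates 3 and 4, 3 with both anchors in the window, 2 in a window of 0 to 300000 and 2 at a threshold of 0.01; leaving out 1 library gave 3 to 5, with 3 without 0 h replicate 2 or 72 h replicate 1, 3 or 4. At 6 h the 1 call became 0 with DESeq2, within either pair of replicates, with both anchors in the window, in the shorter window and at 0.01; leaving out 1 library gave 0 to 2. At 72 h against 6 h the 1 call became 0 under those same settings, and leaving out 1 library gave 0 to 1. Fewer libraries or loops enter the pairs of replicates and the smaller windows. Within replicates 3 and 4 the 72 h libraries count as 1 sample, so the 72 h calls of that fit are not replicated. For the other settings the cause was not tested. No called loop changed direction. The replicate block gave 2 calls at 6 h, since loop28358 passed (edgeR adjusted p = 0.046), and changed no other call in the window. Over all loops it called 1938 at 6 h, against 1546 without it. Replicates with 1 number correlated at 0.015 to 0.124 across times. Whether the numbers pair the samples was not tested.

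As a share of contacts in tested loops of chromosome 16, the window held 1.2233% at 0 h, 1.1516% at 6 h and 1.0855% at 72 h. The 5 loops with both anchors inside held 0.0308%, 0.0268% and 0.0243% of all contacts. Leaving out 1 library gave shares of 0.0435 to 0.0445% at 0 h, 0.0408 to 0.0421% at 6 h and 0.0353 to 0.0363% at 72 h. Over all loops, DESeq2 called 340 at 6 h, 4977 at 72 h and 1979 between them, against 1546, 8105 and 4945 with edgeR, and the length correction called 990 at 6 h. With library totals, 769 loops rose and 731 fell at 6 h, against 565 and 981. Depth limits loop28364 most, with 2 to 14 contacts per library.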
